A study of Mus musculus with 3 samples.

Results

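The 9 genes that encode surface and secreted proteins of resting microglia and are described here, in single-cell RNA libraries of mouse brain, are Tmem119, Cx3cr1, Siglech, Fcrls, Olfml3, Sparc, Slc2a5, Selplg and Ecscr. They were taken by name, and all 9 were listed in each of the 3 count tables, out of 14221 genes listed in at least 1 table and 11979 listed in all 3. Single cells were captured in droplets with the 3' chemistry of 10x Genomics, from brain tissue that was digested with enzymes in the warm and sorted for CD11b and CD45, a gate that takes microglia together with other myeloid cells. WT 1 and WT 2 came from adult wild type mice, and deficient 1 came from a mouse without MHC class II, which has hardly any CD4 T cells. The labels give no allele, strain or age in weeks for any of the 3 mice, and no age word for the deficient one. With 1 deficient library there was no spread between deficient animals, so the tests of genotype take their spread from the WT pair. The study's title concerns the dependence of microglial maturation on CD4 T cells, and the comparison of genotypes bears on whether these adult microglial genes differ where such cells are missing.

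Microglia are the resident macrophages of the brain, and in the healthy adult they carry a surface and secretory programme that sets them apart from other macrophages and that depends on TGF-beta signalling. Members of this programme are known to fall when microglia become activated or are taken out of the brain. Among its receptors, Cx3cr1 encodes the receptor for fractalkine, a chemokine that neurons present, and Siglech encodes a sialic acid-binding lectin that signals through the adaptor Tyrobp. Fcrls encodes an Fc receptor-like scavenger receptor. Tmem119 encodes a membrane protein used as a marker of microglia against other macrophages. Selplg encodes PSGL-1, the selectin ligand found on most leukocytes, Slc2a5 encodes the fructose transporter, and Ecscr encodes a membrane protein first described in endothelial cells. The secreted members are Olfml3, an olfactomedin-domain glycoprotein of the extracellular matrix, and Sparc, a collagen-binding matricellular protein.

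The tables held 4589, 4815 and 2278 cell barcodes for WT 1, WT 2 and deficient 1, with 16230216, 17293844 and 6616662 unique molecular identifiers (UMIs, 1 per captured transcript). H2-Aa, H2-Ab1 and H2-Eb1, the classical class II chains, had 2624 to 3831 UMIs in WT 1 and 2939 to 4462 in WT 2 and were not listed in the table of deficient 1, where every listed gene had UMIs in at least 4 cells. Between 13 and 28 barcodes were shared by any pair of libraries. The filters left 4340, 4667 and 2257 cells, whose median UMI counts were 3384.5, 3338 and 2824. Cells were placed in classes and states by the share of their UMIs in marker lists that hold none of the 9 genes. Microglia-like cells numbered 3906, 4405 and 2205, and 6.29%, 6.64% and 6.81% of their summed UMIs fell in the 10 microglial markers. Of these, 3087, 3863 and 1982 were resting, which here means below the cut of all 3 states. Cells with at least 2% of UMIs in 11 immediate early genes (743, 464 and 182) were called immediate early-high, those with interferon-response genes (34, 36 and 30) interferon, and those with Lpl, Cst7 or related genes (18, 15 and 5) Lpl/Cst7. The remaining sets were border-associated macrophage-like (51, 47 and 10), monocyte-like (39, 28 and 18) and neutrophil-like cells (273, 136 and 17). These sets are ranges of a score, not clusters: 274, 170 and 67 microglia-like cells lay near the immediate early cut, 48, 37 and 23 near the interferon cut and 22, 38 and 14 near the Lpl/Cst7 cut.

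None of the 9 genes passed the test between deficient and WT microglia-like cells. Levels are in CPM (counts-per-million), taken over all UMIs of the summed cell set, in the order WT 1, WT 2 and deficient 1. Tmem119 stood at 2558, 2790 and 2652 CPM, with the deficient value between the WT values. Selplg also lay between them, at 4242, 4574 and 4474 CPM. For 6 genes the deficient value lay above both WT values. Siglech stood at 1318, 1332 and 1492 CPM, Fcrls at 2334, 2512 and 2712 CPM, and Cx3cr1 at 3032, 2942 and 3246 CPM. Of the secreted members, Olfml3 stood at 2008, 2243 and 2517 CPM and Sparc at 2481, 2848 and 2884 CPM. Ecscr, at 437, 484 and 488 CPM, was higher than WT 2 by less than the gap between the WT libraries. Slc2a5 was the only gene whose deficient value lay below both WT values, at 557, 632 and 543 CPM.

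In edgeR's quasi-likelihood test 0 of the 9 passed an adjusted p of 0.05, where 8.81% of all 11890 genes tested were called in either direction, and 0 of the 9 had an unadjusted p below 0.05. DESeq2 and limma voom called 0 of the 9 as well. The largest difference was that of Olfml3, a log2 fold change of 0.25 (SE 0.13, 95% interval -0.017 to 0.52, adjusted p = 0.288, edgeR). Siglech (0.18, interval -0.065 to 0.42) and Fcrls (0.17, -0.097 to 0.44) followed. Tmem119 differed by -0.0043 (interval -0.28 to 0.27) and Slc2a5 by -0.12 (-0.36 to 0.12). The median log2 fold change of the 9 was 0.12, against -0.0010 over all genes tested. These p-values rest on the spread of the WT pair, which edgeR pools over genes, and not on each gene's own spread alone. They cover no spread beyond these libraries, and intervals of this width do not show that a level is the same in both genotypes.

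Libraries differed in the share of microglia-like cells that were immediate early-high, 19.02% in WT 1, 10.5% in WT 2 and 8.25% in deficient 1, so the contrast was repeated within resting cells. There, too, 0 of the 9 passed (edgeR, 0 with an unadjusted p below 0.05, and 0 by DESeq2), beside 9.69% of 11714 genes. The deficient value lay above the WT range for 4 genes (Cx3cr1, Siglech, Fcrls and Olfml3), inside it for 4 and below it for Slc2a5. Olfml3 stood at 2157, 2377 and 2612 CPM in resting cells and again had the largest difference (log2 fold change 0.22, SE 0.12, adjusted p = 0.279, edgeR).

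**Figure D1:**
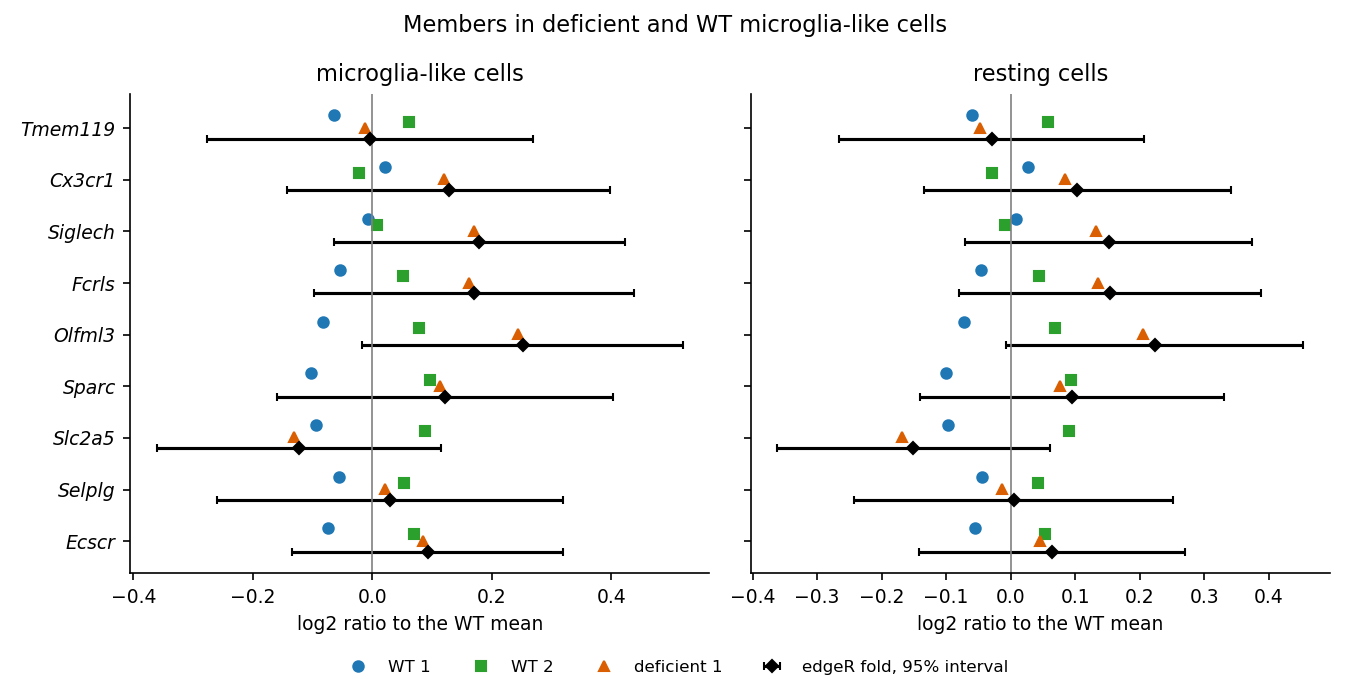
Log2 ratio of each library's level (CPM) to the WT mean for the 9 genes in microglia-like cells (left) and resting cells (right), with 1 point per library (n = 2 WT, n = 1 deficient). Black diamonds are edgeR log2 fold changes, deficient minus WT, with 95% intervals. Every interval spans 0, and the highest fold is that of Olfml3 in both panels.

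Within a library, the 9 genes took a smaller share of UMIs in immediate early-high than in resting cells, and Ecscr, Olfml3, Siglech and Selplg passed the test. Ecscr stood at 476, 514 and 511 CPM in resting cells and at 324, 322 and 332 CPM in immediate early-high cells of WT 1, WT 2 and deficient 1. Olfml3 stood at 2157, 2377 and 2612 CPM against 1561, 1465 and 1820 CPM. The ranges of the 2 states did not overlap for either gene. Siglech went from 1419, 1403 and 1547 CPM to 1005, 936 and 1068 CPM, and Selplg from 4544, 4824 and 4639 CPM to 3364, 3180 and 3264 CPM. Again the lowest resting value lay above the highest immediate early-high value. Here and below, ranges over libraries were compared for the 9 genes only, so the share of all genes without overlap is not known. All 9 genes were lower in CPM in every library, from Olfml3 in WT 2 (61.7% of its resting level) to Sparc in deficient 1 (87.4%).

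Part of this difference in CPM was shared by most genes: the median CPM ratio of all genes was -0.21, -0.25 and -0.28 on the log2 scale in WT 1, WT 2 and deficient 1. The edgeR fold changes are scaled by the trimmed mean of M values, which leaves the median gene at -0.025, and are therefore differences relative to the typical gene. On that scale 4 of 9 fell, where 8.0% of 10725 genes tested were called lower. Ecscr fell by 0.40 (SE 0.089, adjusted p = 0.0055), Olfml3 by 0.34 (SE 0.095, adjusted p = 0.021), Siglech by 0.32 (SE 0.091, adjusted p = 0.024) and Selplg by 0.29 (SE 0.094, adjusted p = 0.042) on the log2 scale (edgeR). Slc2a5 (-0.27, adjusted p = 0.064), Fcrls (-0.23, 0.091), Cx3cr1 (-0.17, 0.234), Sparc (-0.092, 0.563) and Tmem119 (-0.073, 0.651) did not pass in edgeR. The median of the 9 was -0.27. DESeq2 called 1 of the 9 (Ecscr), where it called 1.45% of 10725 genes lower. Without WT 1 or without WT 2 the count was 0, with Ecscr at adjusted p = 0.067 and 0.072 (edgeR).

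Immediate early-high cells were also deeper, with a mean of 4285, 4628 and 3493 UMIs per cell against 3409, 3456 and 2861 in resting cells. Counted as UMIs per cell, Ecscr was lower in every library (1.39, 1.49 and 1.16 against 1.63, 1.78 and 1.46), and so were Olfml3, Siglech and Selplg. Tmem119 and Sparc changed direction on this scale in WT 1 and deficient 1. Tmem119 had 9.57, 10.05 and 8.25 UMIs per immediate early-high cell against 9.15, 10.06 and 7.74 per resting cell, and Sparc 9.19, 9.98 and 8.97 against 8.88, 10.29 and 8.41. For these genes the lower CPM in WT 1 and deficient 1 therefore stood beside more UMIs per cell, not fewer.

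Cells were then binned by their immediate early share, with levels given as CPM over the UMIs outside the immediate early list. Between the lowest bin (below 0.25%) and the bin of 1 to 2%, the median gene stood at 97.7%, 93.5% and 98.2% of its starting level in WT 1, WT 2 and deficient 1. In the bin of 2 to 4% it stood at 91.7%, 80.2% and 86.1%. In the highest bin (4% or more, with 431, 290 and 84 cells) the median was 71.9%, 60.3% and 62.8%. Ecscr went from 501, 524 and 507 to 288, 297 and 312 CPM between these ends. Sparc went from 2527, 2991 and 2869 to 2004, 1895 and 2391 CPM. In UMIs per cell the highest bin held 77.8% to 107.1% of the lowest bin's value in WT 1, 68.5% to 95.8% in WT 2 and 68.6% to 98.1% in deficient 1. Mean depth outside the list rose from 3145, 3397 and 2852 to 4250, 4436 and 3356 UMIs per cell over the same bins, and its part in the lower shares was not tested.

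**Figure D2:**
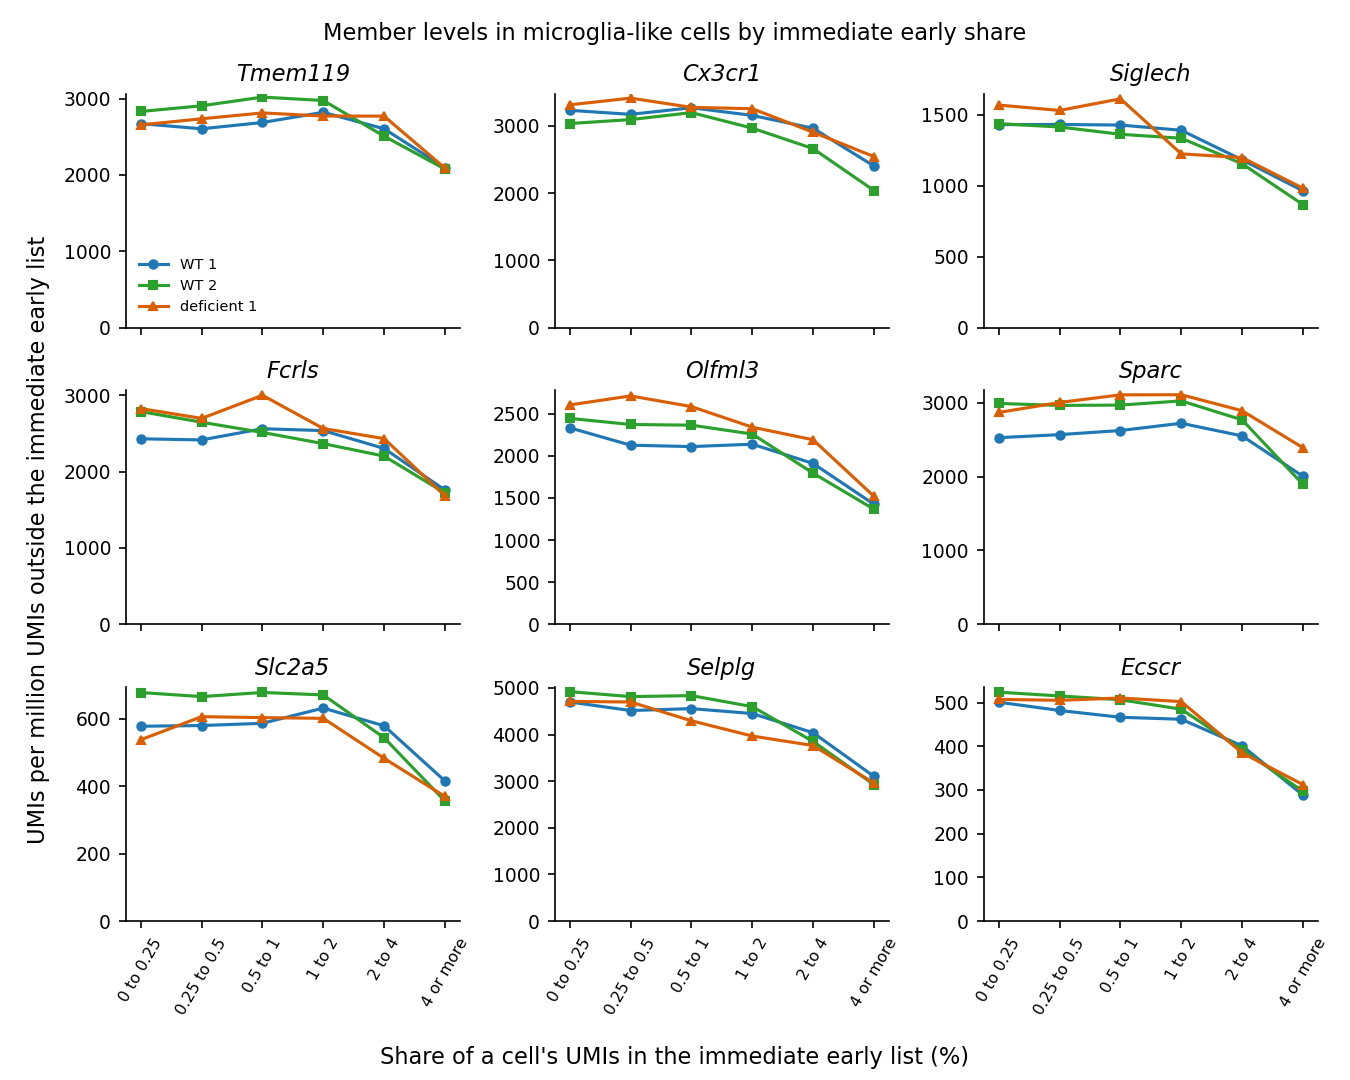
Level of each gene (vertical axis, CPM over UMIs outside the immediate early list) in microglia-like cells binned by the share of a cell's UMIs in the immediate early list (horizontal axis, %), with 1 line per library. In each panel the lines are lowest at 4% or more, where Ecscr stands at 288, 297 and 312 CPM, while in the bin of 1 to 2% the genes range from 78.1% (Siglech) to 111.8% (Slc2a5) of the lowest bin, both in deficient 1.

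No difference between genotypes in the immediate early contrast was called for these genes. With an interaction term of state and genotype, 0 of the 9 passed (edgeR, 0 with an unadjusted p below 0.05), where 0.396% of 11109 genes were called in either direction. The differences in log2 fold change ran from 0.0072 (Fcrls) to 0.20 (Sparc, 95% interval -0.11 to 0.52).

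Of the genes that were lower in immediate early-high cells, Siglech and Olfml3 had a RefSeq start with upstream bases almost free of annotated exons, and these bases are shown because both genes fell in that state. The window of Siglech lies at chr7:55767934-55768177 on the plus strand and that of Olfml3 at chr3:103738002-103738251 on the minus strand (RefSeq, build GRCm38.p6), each printed 5' to 3' and ending just before the GENCODE gene start. Capitals mark matches to the motifs searched on both strands, which were PU.1 (GAGGAA), AP-1 (TGANTCA), the cAMP response element (TGACGTCA), the interferon-stimulated response element and SMAD (CAGAC).
Siglech: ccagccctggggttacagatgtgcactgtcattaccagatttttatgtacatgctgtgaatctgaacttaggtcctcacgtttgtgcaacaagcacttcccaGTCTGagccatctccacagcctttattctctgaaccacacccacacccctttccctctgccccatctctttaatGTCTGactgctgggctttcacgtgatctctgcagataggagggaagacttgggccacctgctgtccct
Olfml3: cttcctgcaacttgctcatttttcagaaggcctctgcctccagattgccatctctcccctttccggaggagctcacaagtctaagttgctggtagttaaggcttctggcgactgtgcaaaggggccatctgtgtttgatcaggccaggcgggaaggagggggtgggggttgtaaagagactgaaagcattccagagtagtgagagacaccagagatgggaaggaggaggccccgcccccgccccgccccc
The window of Siglech holds 2 matches, both to the SMAD letters on the reverse strand (GTCTG), and that of Olfml3 holds none. Over the 6 members with a RefSeq window (Cx3cr1, Siglech, Fcrls, Olfml3, Sparc and Slc2a5), 5 windows of 250 bases held the SMAD letters, against 42.2% of all 32851 RefSeq windows of that length. Many of these bases lay in GENCODE exons: 250 in the window of Cx3cr1, 238 in Sparc, 136 in Fcrls and 89 in Slc2a5. Exon bases in the windows of other genes were not counted. A single window, that of Fcrls, held the PU.1 letters, against 23.3% of all windows. None of the 6 held the AP-1 letters (6.75% of all windows), the cAMP response element (1.55%) or the interferon-stimulated response element (2.98%). No matches overlapped. A match is a run of letters in a short window and not a measured binding site.

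Interferon-state cells showed lower Fcrls in every library and by every setting tried. Fcrls stood at 2482, 2640 and 2813 CPM in resting cells and at 1722, 1723 and 1813 CPM in interferon cells of WT 1, WT 2 and deficient 1, with no overlap between the states. Its log2 fold change was -0.64 (SE 0.11, 95% interval -0.85 to -0.42, adjusted p = 1.3e-06, edgeR), a level 1.55-fold lower. In UMIs per cell it was 5.76, 6.22 and 6.17 against 8.47, 9.14 and 8.05. Sparc, at 2118, 2577 and 2117 CPM against 2602, 2974 and 2940 CPM, fell by 0.37 on the log2 scale (SE 0.11, adjusted p = 0.035, edgeR). Ecscr, at 369, 431 and 274 CPM against 476, 514 and 511 CPM, fell by 0.52 (SE 0.16, adjusted p = 0.0497, edgeR). Thus 3 of 9 fell, where 0.255% of 10216 genes were called lower, and all 9 fitted values lay below 0 (median -0.23, against -0.13 for all genes). Sparc and Ecscr were not called with relative log expression size factors (adjusted p = 0.26 and 0.19, edgeR), with DESeq2, after thinning to 1000 UMIs (0.055 and 0.57), with marker cuts raised 1.5 times (0.057 and 0.61) or lowered to 0.67 times (0.49 and 0.65), without WT 2 (0.29 and 0.11) or without deficient 1 (0.69 and 0.94). Sparc was also lost without WT 1 (0.12) and against resting cells under 0.5% immediate early (0.073), and after thinning Olfml3 was called (-0.56, adjusted p = 0.0054, edgeR). Fcrls passed under each of the 11 alternatives, with adjusted p from 1.04e-09 to 0.044 (edgeR or DESeq2).

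The members that did not pass in interferon cells varied between libraries. Selplg stood at 4201, 5324 and 3665 CPM, above its resting level in WT 2 and below it in the other libraries. Slc2a5 stood at 457, 554 and 343 CPM against 591, 673 and 562 CPM at rest (log2 fold change -0.48, adjusted p = 0.063, edgeR). Tmem119 stood at 2619, 2800 and 2107 CPM, and only the deficient library lay well below its resting value of 2703 CPM. For Cx3cr1 the values were 3049, 2831 and 2793 CPM, and for Siglech 1353, 1200 and 1382 CPM. Olfml3 stood at 1933, 2408 and 1940 CPM, above its resting level in WT 2 alone. Each pool held at most 36 cells.

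The Lpl/Cst7 list holds genes that rise in microglia around damage, plaques and developing white matter. A cell entered this state with at least 0.08% of its UMIs, and at least 3 UMIs, in the list. UMIs of 1 marker were enough, which need not be Lpl or Cst7. In both WT libraries cells of this state had lower levels of Slc2a5, Tmem119, Selplg, Ecscr and Siglech than the other microglial sets. The test used WT 1 and WT 2 alone, since deficient 1 had 5 such cells. Slc2a5 stood at 245 and 139 CPM in WT 1 and WT 2 against 591 and 673 CPM in resting cells. Tmem119 stood at 1378 and 1313 CPM against 2680 and 2908 CPM, and Selplg at 2388 and 2131 CPM against 4544 and 4824 CPM. Ecscr stood at 306 and 201 CPM against 476 and 514 CPM, and Siglech at 919 and 911 CPM against 1419 and 1403 CPM. For these genes both WT libraries lay on the same side. The 5 deficient cells gave 383, 862, 2156, 192 and 814 CPM for Slc2a5, Tmem119, Selplg, Ecscr and Siglech. Cx3cr1 stood at 2802 and 2317 CPM against 3198 and 3077 CPM in WT, and at 3545 CPM against 3325 CPM in the deficient library, the opposite direction.

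By edgeR 0 of the 9 passed in this state (adjusted p = 0.897 for each), and 0 genes of 10591 were called (0.0% lower). All 9 had an unadjusted p below 0.05, as did 530 of the 10591 genes tested. The fitted log2 values were -1.92 for Slc2a5 (SE 0.29), -1.26 for Tmem119 (SE 0.11), -1.26 for Selplg (SE 0.11), -1.17 for Ecscr (SE 0.24) and -0.83 for Siglech (SE 0.11). Olfml3 (-0.68), Sparc (-0.57), Cx3cr1 (-0.50) and Fcrls (-0.45) followed, and the median was -0.83 against -0.29 over all genes tested. The fitted values lay below the plain CPM ratios of both WT libraries for Fcrls, Olfml3, Sparc, Cx3cr1, Siglech, Tmem119 and Selplg. With relative log expression size factors the median of all genes was -0.17, and Tmem119 stood at -1.14. DESeq2 gave adjusted p-values for 735 genes and called 1.63% of them lower. Of the 9 it called 3 lower: Tmem119 (-1.14, adjusted p = 2.3e-05), Selplg (-1.14, adjusted p = 3.6e-06) and Slc2a5 (-1.81, adjusted p = 0.00060). With marker cuts lowered to 0.67 times, edgeR called 4 (Tmem119, Siglech, Slc2a5 and Selplg), where 0.105% of 10519 genes were called lower. In UMIs per cell the 9 stayed below resting in both WT libraries, from Fcrls (8.33 against 8.47 in WT 1) to Slc2a5 (0.600 against 2.33 in WT 2).

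**Figure D3:**
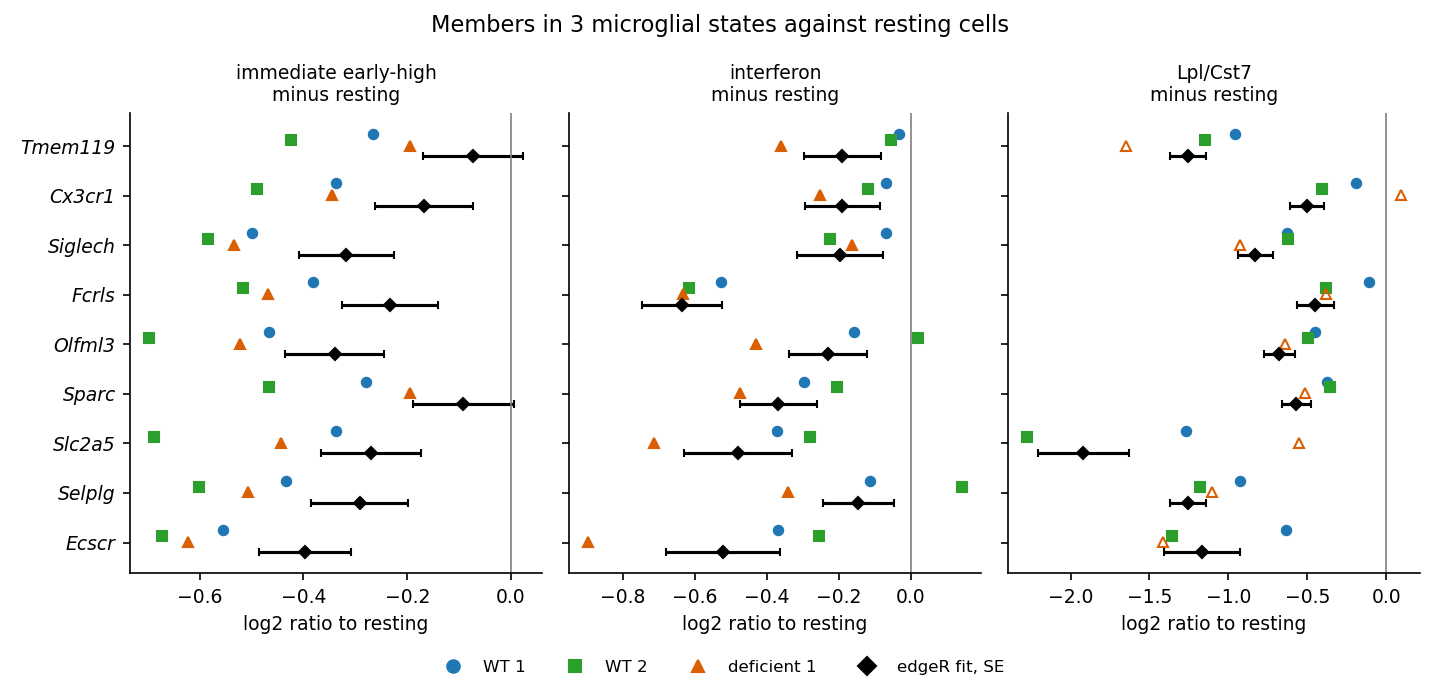
Log2 ratio to resting cells of the same library (horizontal axis) for each gene in immediate early-high, interferon and Lpl/Cst7 cells, with coloured points for the CPM ratio of each library and black diamonds for the edgeR fit with its SE. Open triangles mark the 5 Lpl/Cst7 cells of deficient 1, which were not in the fit. In the first panel the fitted values lie to the right of the points, and in the last panel most lie to the left.

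Outside microglia, every member was lower in CPM in every class and library. Microglia-like and border-associated macrophage-like cells did not overlap for any of the 9 genes, taking the 3 libraries as the range. Ranges of other genes were not compared. Border-associated macrophages are the resident macrophages of the meninges and perivascular spaces. All 9 fell in these cells against microglia-like cells of the same library, where 4.3% of 10605 genes were called lower. Fcrls was the least reduced, at 1750, 1667 and 653 CPM against 2334, 2512 and 2712 CPM (log2 fold change -0.89, SE 0.25, adjusted p = 0.0047, edgeR). In UMIs per cell Fcrls was higher than in microglia-like cells in both WT libraries, at 9.47, 9.68 and 2.2 against 8.37, 9.03 and 7.93, and the other 8 genes were lower in all 3. The mean depth was 5317, 5707 and 3369 UMIs per cell against 3584, 3591 and 2924. With DESeq2 (adjusted p = 0.21) and without WT 2 (adjusted p = 0.17, edgeR) this difference missed the threshold. Cx3cr1 stood at 1699, 1396 and 504 CPM (-1.36, SE 0.25). Selplg was the most reduced in the fit, at 1275, 1425 and 208 CPM (-2.20, SE 0.26), with Tmem119 at 688, 887 and 89.0 CPM (-2.17, SE 0.26). Olfml3 stood at 667, 846 and 59.4 CPM, Sparc at 782, 894 and 59.4 CPM and Siglech at 496, 465 and 29.7 CPM. Slc2a5 and Ecscr had 0 UMIs in the 10 deficient cells, which allows up to 89.0 CPM for each, against 199 and 161 CPM and 138 and 150 CPM in the WT libraries.

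The libraries differed within this class. The summed level of the 9 was 40.6% and 38.8% of that in microglia-like cells in WT 1 and WT 2 and 7.63% in deficient 1, where 54 UMIs were counted. The summed share of the 10 microglial markers in the same cells was 3.57%, 3.73% and 2.56%, and several of these, such as the C1q genes, are known in border-associated macrophages too. The part of RNA from microglia in these levels was not tested. Without deficient 1 all 9 were still called, with log2 fold changes from -0.39 (Fcrls) to -1.66 (Tmem119). In the cells with at least 0.5% of UMIs in the border-associated macrophage list (28, 23 and 4), Fcrls stood at 1794, 1829 and 1419 CPM, Cx3cr1 at 1178, 798 and 532 CPM and Tmem119 at 438, 685 and 88.7 CPM (1 UMI in the deficient cells). In the WT pair, the libraries with enough such cells, Fcrls had a log2 fold change of -0.39 (adjusted p = 0.044, edgeR) and the other 8 ran from -1.57 (Cx3cr1) to -2.25 (Tmem119).

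Monocyte-like cells, a blood-derived class within the gate, held 10.4%, 7.49% and 3.62% of the microglial summed level. All 9 fell, where 17.3% of 10557 genes were called lower. Cx3cr1, which marks patrolling monocytes in blood, was the least reduced, at 477, 351 and 332 CPM (log2 fold change -2.84, SE 0.24, edgeR), followed by Selplg at 644, 587 and 206 CPM (-3.04, SE 0.25). Sparc was the most reduced, at 157, 69.04 and 15.8 CPM (-4.64, SE 0.28), with Olfml3 at 99.7, 132 and 15.8 CPM (-4.37, SE 0.28). Between border-associated macrophage-like and monocyte-like cells, Cx3cr1 and Fcrls did not overlap and the other 7 did.

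Neutrophils are not known to make most of these proteins, and this class was planned as a measure of free RNA. No doublet caller was run, and cells over the microglial cut with at least 1% of UMIs in the neutrophil list had been left out. Free RNA, doublets and expression by the cells themselves were not told apart. The summed level in neutrophil-like cells was 4.91%, 4.10% and 2.85% of that in microglia-like cells. All 9 fell, where 30.0% of 10558 genes were called lower, with Tmem119 at 91.4, 72.3 and 0 CPM (0 of 48450 UMIs in deficient 1, which allows up to 61.9 CPM) and Sparc at 81.0, 95.03 and 0 CPM. Cx3cr1 stood at 136, 132 and 61.9 CPM, Fcrls at 84.2, 68.1 and 41.3 CPM and Siglech at 55.3, 53.9 and 20.6 CPM. Selplg was the least reduced, at 349, 299 and 392 CPM (log2 fold change -2.32, SE 0.40, edgeR). The split of all genes depends on the scaling here: 2590 were called higher and 3168 lower, against 1645 and 5412 with relative log expression size factors, which moved the median gene from -0.34 to -1.0. All 9 were lower under both. The ranges of monocyte-like and neutrophil-like cells overlapped for 7 genes, with Cx3cr1 and Fcrls higher in monocyte-like cells in all 3 libraries.

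**Figure D4:**
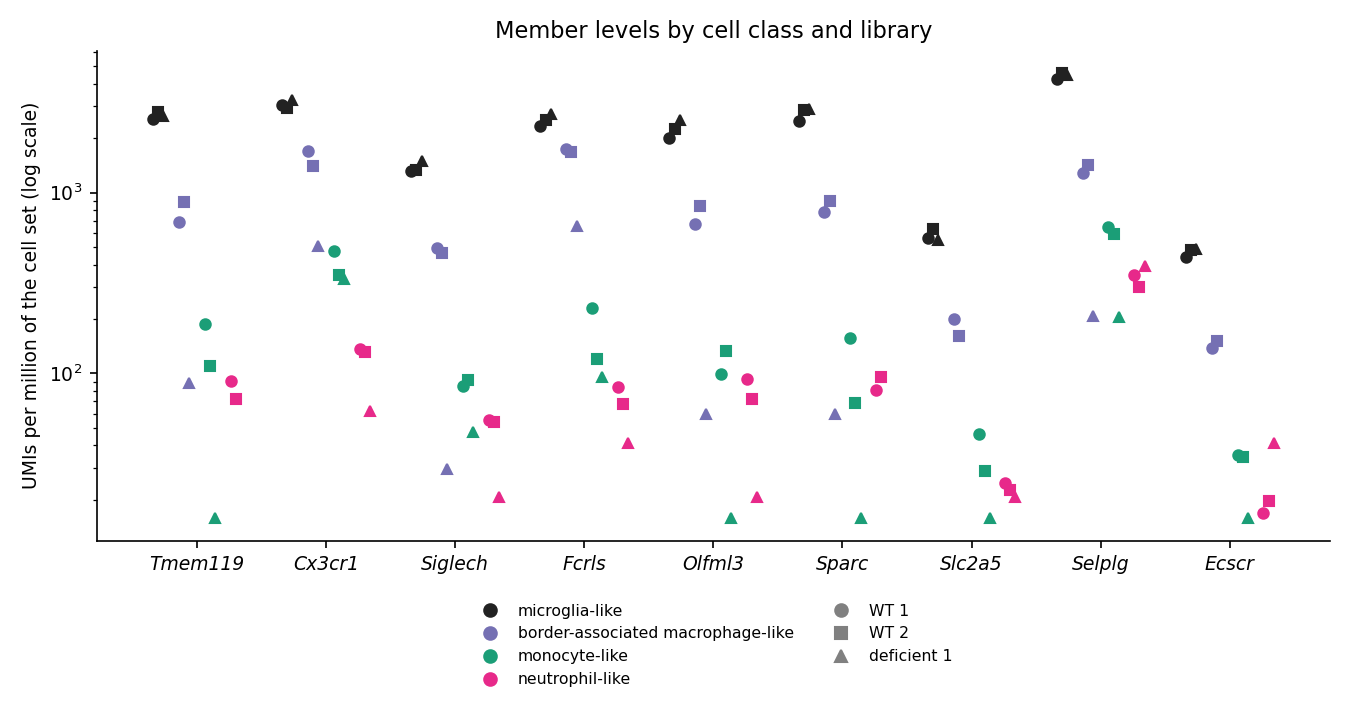
Level of each gene (CPM, log axis) in 4 cell classes, with 1 marker shape per library. Values of 0 are not drawn: Slc2a5 and Ecscr in border-associated macrophage-like cells and Tmem119 and Sparc in neutrophil-like cells, all in deficient 1. Microglia-like cells (black) lie above every other class for each gene.

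The make-up of the 9 genes' UMIs differed between classes. In microglia-like cells Selplg gave 22.4%, 22.5% and 21.3% of the 9 genes' UMIs. In neutrophil-like cells it gave 37.4% in WT 1 (435 of 1162 UMIs, exact Clopper-Pearson 95% interval 34.6 to 40.3), 35.8% in WT 2 (211 of 589, 31.9 to 39.8) and 65.5% in deficient 1 (19 of 29, 45.7 to 82.1). PSGL-1 is known as the selectin ligand of neutrophils. Tmem119 gave 9.81% and 8.66% of the UMIs in WT neutrophil-like cells against 13.5% and 13.7% in WT microglia-like cells. Such intervals cover counting error only.

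In border-associated macrophage-like cells Fcrls gave 22.7% (483 of 2124 UMIs, interval 21.0 to 24.6), 21.1% (455 of 2154, 19.4 to 22.9) and 40.7% (22 of 54, 27.6 to 55.0) against 12.3%, 12.3% and 12.9% in microglia-like cells. In monocyte-like cells Cx3cr1 gave 24.3% (interval 20.8 to 28.1), 23.02% (18.1 to 28.6) and 43.8% (29.5 to 58.8) against 16.0%, 14.5% and 15.4%. In the border-associated macrophage-like cells Cx3cr1 gave 22.1% (interval 20.3 to 23.9), 17.7% (16.1 to 19.4) and 31.5% (19.5 to 45.6). In monocyte-like cells Selplg gave 32.8% (28.9 to 36.9), 38.5% (32.6 to 44.6) and 27.1% (15.3 to 41.8). The shares named for these classes lay above those of microglia-like cells by more than their counting error in all 3 libraries, except that of Selplg in the monocyte-like cells of deficient 1, whose interval holds the microglial 21.3%.

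**Figure D5:**
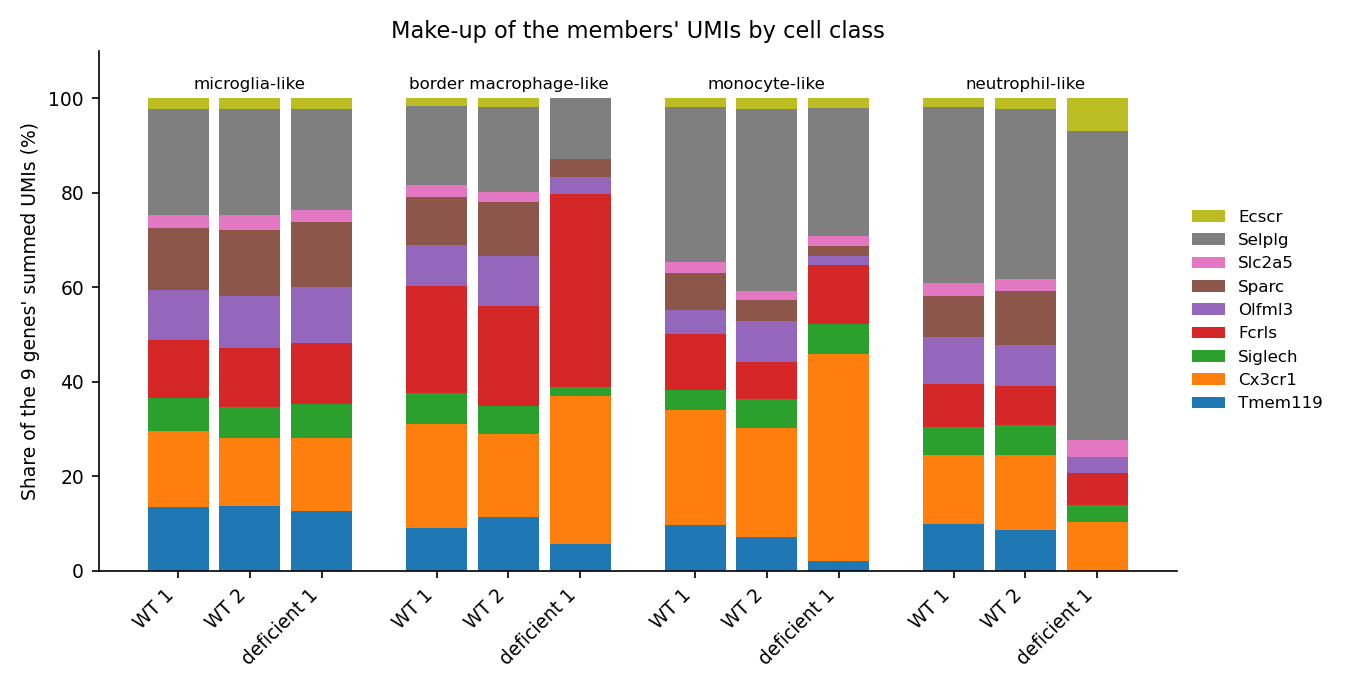
Share of each gene in the summed UMIs of the 9 genes (vertical axis, %) by cell class and library. The bars of microglia-like cells are nearly alike, Fcrls is wider in border-associated macrophage-like cells (22.7%, 21.1% and 40.7%), and Selplg is wider in neutrophil-like cells (37.4%, 35.8% and 65.5%).

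Per cell, almost every microglia-like cell had UMIs of most members. Selplg was found in 99.7%, 99.8% and 99.5% of microglia-like cells and in 67.4%, 63.2% and 47.1% of neutrophil-like cells, at median depths of 3378, 3328 and 2827 against 2989, 3122 and 2177 UMIs. For Tmem119 the shares were 99.0%, 99.4% and 98.5% in microglia-like cells, against 20.9% and 16.9% in the neutrophil-like cells of WT 1 and WT 2. None of the 17 deficient neutrophil-like cells had a Tmem119 UMI, which allows a share of up to 17.6%. With each cell thinned to 1000 UMIs, which left 3859, 4350 and 2162 microglia-like and 264, 124 and 15 neutrophil-like cells, Selplg was found in 97.1%, 97.7% and 97.4% against 37.1%, 26.6% and 33.3%. Tmem119 at that depth was found in 89.7%, 92.0% and 90.4% against 7.2%, 7.26% and 0%, and Ecscr in 34.7%, 37.1% and 38.4% of microglia-like cells.

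The wider homeostatic programme was followed with 35 other genes of the same state, all of them tested. In deficient microglia-like cells 1 rose and 3 fell, and 4 of 35 is near the 8.81% of all genes called. Hpgd, a prostaglandin-degrading enzyme, rose (log2 fold change 0.54, adjusted p = 0.0011, edgeR), and Rhob, a small GTPase, was among those that fell (-1.44, adjusted p = 3.0e-07, edgeR). The abundant Cst3 (0.16) and C1qa (0.29) did not pass, and the median of the list was 0.041. In immediate early-high cells, where 11.6% of all genes were called higher and 8.0% lower, 7 of the 35 fell, among them Sall1, a transcription factor of microglial identity (-0.48, adjusted p = 0.013, edgeR), and the purinergic receptor P2ry12 (-0.35, adjusted p = 0.025, edgeR), and 1 rose, Rhob (1.59, adjusted p = 1.1e-08, edgeR). With DESeq2 0 of the 35 fell and 1 rose. In interferon cells 3 fell, where 0.255% of all genes were called lower: Cst3 (-0.35), P2ry12 (-0.56) and Gpr34 (-0.38, adjusted p = 0.025, edgeR). Of these, Gpr34 was not called with relative log expression size factors (adjusted p = 0.22, edgeR), and DESeq2 called none. In Lpl/Cst7 cells 0 of the 35 passed in edgeR, with 28 at an unadjusted p below 0.05 and a median of -0.62. There DESeq2 called 5 of them lower, and 1.63% of 735 genes.

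Against the other classes the 35 genes are less independent, since 10 of them were the markers that defined microglia-like cells. In border-associated macrophage-like cells 29 fell (20 with DESeq2) and 0 rose, where 4.3% of all genes were called lower and 5.87% higher, led by P2ry12 (-2.30, which DESeq2 did not call), with C1qa at -0.57 (adjusted p = 0.146, edgeR). In monocyte-like cells all 35 fell, where 17.3% of all genes were called lower, with P2ry12 and P2ry13 at -4.49 and -4.48. In neutrophil-like cells 33 fell, where 30.0% of all genes were called lower, among them C1qc (-3.75). Itgam (0.96) and Cd33 (0.84), genes that neutrophils are known to express, were called higher there, where 24.5% of all genes were. With relative log expression size factors they stood at 0.28 (adjusted p = 0.44) and 0.17 (adjusted p = 0.57, edgeR) and with DESeq2 at 0.25 and 0.19, and neither was called.

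Partners of the members were taken from a second list of 20 genes, of which 17 were listed in all 3 tables: adaptors of Siglec-H, enzymes that modify PSGL-1, other sugar transporters, G proteins and sheddases. None of the 17 passed between genotypes in microglia-like cells (edgeR, 2 with an unadjusted p below 0.05). Tyrobp, the adaptor of Siglec-H, had a log2 fold change of 0.22 (adjusted p = 0.387, edgeR). In immediate early-high cells 15 could be tested and 3 passed: the glucose transporter gene Slc2a1 rose (0.54, adjusted p = 0.0033), and the adaptor Hcst (-0.45, adjusted p = 0.013) and the sheddase Adam10 (-0.29, adjusted p = 0.032) fell in edgeR. This count is near the 11.6% of all genes called higher and 8.0% lower, and DESeq2 called 0 of the 15. Tyrobp stood at -0.28 (adjusted p = 0.053, edgeR) there. In interferon and in Lpl/Cst7 cells 0 of 16 passed (edgeR, 1 and 2 with an unadjusted p below 0.05). In border-associated macrophage-like cells Slc2a6 (2.68) and the sialyltransferase St3gal4 (1.26) rose, and Adam10 (-1.45) and Gcnt1 (-1.39), which builds branched O-glycans, were among 3 that fell, beside 5.87% of all genes called higher and 4.3% lower. DESeq2 called Adam10 alone of the 16. In neutrophil-like cells 7 of 16 were called higher (6 with relative log expression size factors) and 7 lower, beside 24.5% and 30.0% of all genes, with Slc2a3 (6.08) and Slc2a6 (4.72) highest. In monocyte-like cells 5 of 17 were called higher (3 with DESeq2) and 5 lower, beside 14.5% and 17.3% of all genes, with Slc2a6 at 4.65, Fut7, the fucosyltransferase that completes selectin ligands, at 3.73 (SE 1.13), and St3gal6 at -3.66. The folds of Fut7, Slc2a6 and Slc2a3 start from low levels in microglia-like cells. These were 0.79, 0.82 and 0.47 CPM for Fut7, 1.36, 2.47 and 1.86 CPM for Slc2a6 and 5.07, 4.43 and 3.72 CPM for Slc2a3. St3gal6 stood at 461, 458 and 444 CPM there.

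As a description, each member was set beside the genes whose level ran most closely with it over the 20 units of library and cell set, by Pearson's r of log2(CPM + 1) among 3045 genes. Fcrls ran with Lgmn (r = 0.99), Fcgr3 and Rnase4, and Selplg with Vsir (r = 0.98), Ivns1abp and Cd37. Olfml3 and Siglech both ran with Gpr34 (r = 0.99 and 0.98) and Rtn4rl1, with F11r first for Siglech and Tcn2 second for Olfml3. Tmem119 and Sparc shared Scoc, with Scamp2 beside Tmem119 and Syngr1 beside Sparc. Cx3cr1 ran with Cst3, Qk and Abhd12. Slc2a5 ran with Man1a2, Pttg1ip and Adgrg1, and Ecscr with Man1a2, Adora3 and Sgk1. Units of the same library share depth and may share free RNA, and no p is given. Among the members themselves the median r over 36 pairs was 0.92 (0.71 to 0.99) in all 20 units and 0.68 (0.12 to 0.95) in the 11 microglial units.

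Positions are those of the GENCODE M21 annotation on build mm10, where all 9 genes are protein-coding. Tmem119 (chr5:113793729-113800516) and Selplg (chr5:113818536-113832644) are both on the minus strand, 18020 bases apart, with 1 annotated gene (Gm19931) between them. Fcrls (chr3:87250758-87263738) and Olfml3 (chr3:103722222-103738001) share chromosome 3 at a distance of 16.5 megabases. Cx3cr1 lies at chr9:119901616-120069879, Siglech at chr7:55768178-55778925, Sparc at chr11:55394500-55423183 and Slc2a5 at chr4:150119283-150144169. Ecscr lies at chr18:35713086-35722356 and overlaps 1700066B19Rik on the other strand. The annotated span of Cx3cr1 overlaps 9 other genes, 3 of them protein-coding on the same strand. Whether the authors' counting used strand is not given in the sources used here, so reads of overlapping genes may not be told apart.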

How the data were processed

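RNA was measured in 3 droplet libraries (WT 1, WT 2, deficient 1). The authors deposited 1 table per library of unnormalized UMI counts, with genes against barcodes. Per the submitters' processing notes, Cell Ranger 3.0, Seurat 2.2 and build mm10 were used. Cell type labels from the authors were not used here, and no doublet caller was run.

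Barcodes below 500 UMIs or 200 genes, or above 10% mitochondrial UMIs, were dropped. Each was assigned by its share of UMIs in marker lists: microglia at least 2%, border-associated macrophage 0.1%, monocyte 0.3%, neutrophil 5%, immediate early 2%, interferon 0.1% and Lpl/Cst7 0.08%, with a minimum number of markers detected. For Lpl/Cst7 that minimum was 1 marker, with at least 3 UMIs in the list. These cuts were set with the marker distributions in hand. Cells over both the border-associated macrophage and the monocyte cut, but not the neutrophil cut, were left out. So were cells over the microglial cut with at least 1% of UMIs in the neutrophil list. Cells over the cut of a lymphoid, dendritic, endothelial or glial list were also left out. Otherwise, cells over the microglial cut and the border-associated macrophage or monocyte cut were kept in the border-associated macrophage-like or monocyte-like class. Names rest on these rebuilt gates.

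UMIs were summed per library and set, and sets of fewer than 10 cells were left out of tests. edgeR 4.0.16 (R 4.3.3) quasi-likelihood tests used trimmed mean of M values scaling, filterByExpr and Benjamini-Hochberg adjustment over all genes tested, with a threshold of 0.05 and, within libraries, a library term. DESeq2 1.42.0 and limma 3.58.1 were alternatives, as were other size factors, filters, cuts, thinning to 1000 UMIs and leaving out each library. The tests were tried on simulated data. All 9 members were named, and of each other list the 3 most abundant genes and the 2 called genes with the largest fold in each direction. Some genes that these rules or the likeness rule select are not reported here. Likeness was computed over genes whose mean level reached 50 CPM. The members and lists were chosen with earlier results of these data known. Nothing in the labels says whether libraries were prepared together. Promoter windows are those of RefSeq (GRCm38.p6). Intervals and limits of a count of 0 (3 UMIs) cover counting error only.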

Additional observations from a re-analysis of the deposited data

How the results depend on the processing

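Genes called between genotypes numbered 1048 in microglia-like and 1135 in resting cells, 485 and 400 with DESeq2, and 594 and 596 after thinning to 1000 UMIs. None of the 9 was called under these. Near 0, Tmem119 turned from -0.0043 to 0.0051 after thinning and to 0.060 over all retained cells, and Selplg in resting cells from 0.0049 to -0.0066 after thinning. Over all settings tried, Selplg in microglia-like cells also ranged down to -0.033 (0.029 in the main fit). In resting cells Tmem119 ranged up to 0.011 (-0.029 in the main fit), Sparc down to -0.018 (0.095) and Ecscr down to -0.0090 (0.064). For immediate early-high cells 2098 genes were called, 925 with DESeq2, 849 after thinning and 820 to 2271 without 1 library (820 without WT 2). Members lower numbered 4, then 1 with DESeq2 and 0 to 5 without 1 library. For interferon cells 190 genes were called, 77 after thinning and 58 to 182 without 1 library (109 without WT 2, 58 without deficient 1). Members lower numbered 3, then 1 with relative log expression size factors, DESeq2, raised cuts or lowered cuts, and 1 to 2 without 1 library. For Lpl/Cst7 cells edgeR called 0 genes (530 at an unadjusted p below 0.05), against 35 with DESeq2, 1 after thinning and 41 with lowered cuts. Members lower there numbered 0, 3, 1 and 4. Against border-associated macrophage-like cells 1079 were called, 557 with DESeq2, 392 after thinning and 321 to 1067 without 1 library (371 without WT 1, 321 without WT 2). Against neutrophil-like cells 5758 were called, 2989 after thinning and 1887 to 5696 without 1 library (1887 without WT 1, 3164 without WT 2). Against monocyte-like cells 3360 were called, 1299 after thinning and 1481 to 3089 without 1 library (2055 without WT 1, 1481 without WT 2). Thinning lowers the number of UMIs and leaving out a library the number of samples, and other causes were not tested. Without 1 WT library the genotype contrast has no residual degrees of freedom and gives values only, and for Lpl/Cst7 cells and the interaction such fits were not run. No paired analysis was possible in the genotype contrast, because the labels pair no WT mouse with the deficient one. The state and class contrasts were within libraries and carried a library term. The small pools (5 to 51 cells) limit the state and macrophage values.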
